A study of Mus musculus with 2 samples.

Results

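The interferon-inducible GTPases are large GTP-binding proteins of cell-autonomous immunity, and 9 of their genes were followed here: Gbp2 and Gbp3 of the guanylate-binding proteins, Irgm1, Irgm2, Igtp, Iigp1 and Ifi47 of the immunity-related GTPases (Irg), and Mx1 and Mx2 of the dynamin-like Mx proteins. Their members were every probeset that the platform annotation assigns to one of these symbols, which gave 11 of 45101 probesets and 9 of 18193 genes with a symbol of their own. None of the 11 was shared with another gene, 7 genes had 1 probeset each, and Gbp2 and Iigp1 had 2. RNA came from RAW264.7 cells, a macrophage-like line from a mouse tumour, infected with the retroviral vector MSCV encoding miR-155 or with the same vector lacking an insert. Both arms had been selected in 7 µg/ml puromycin and cloned, RNA from 5 clones per arm was combined, and each pool was read on 1 array. Polybrene, serum, culture temperature and carbon dioxide were given as the same for both arms. The labels name no interferon or other stimulus, and they do not name the promoter that drives miR-155. With 1 array per group no test was possible, and each difference below describes these 2 arrays. In pooled RNA, more clones with a transcript and more of it per cell cannot be told apart.

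Interferon-inducible GTPases defend a cell from within. Interferon-gamma, acting through GAS elements, and type I interferon, acting through the factor ISGF3 and ISRE elements, switch the genes on, and IRF1 adds to the induction of many of them. In mouse macrophages the Irg proteins and guanylate-binding proteins load onto the vacuoles of parasites and bacteria and break them open, and the Mx proteins bind the ribonucleoproteins of RNA viruses. The stated purpose of the arrays was to find mRNAs under the control of miR-155, a microRNA induced in activated macrophages. It is shown because it is the agent that separates the arms; capitals mark the seed, bases 2 to 8, and the sequence is RefSeq's on GRCm38.p6.
mmu-miR-155-5p, chr16:84714143-84714165, plus strand: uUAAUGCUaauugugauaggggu

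The arrays gave a median signal of 14.1 with miR-155 and 15.3 with empty vector over 45037 probesets without controls. Mir155hg, the host gene of miR-155, read 1.05 with miR-155 and 0.73 with empty vector, and its probeset checks nothing about the vector. Of 10 macrophage markers, 9 lay in the upper 50% of genes by signal, with a summed signal over all 10 of 23615 with miR-155 and 23103 with empty vector; the efferocytosis receptor Mertk was dim (6.0 with miR-155 and 5.5 with empty vector). Adgre1, the macrophage surface marker F4/80, read 289 with miR-155 and 472 with empty vector, and the lipopolysaccharide co-receptor Cd14 read 4145 with miR-155 and 1728 with empty vector. The Fc receptor gene Fcgr1 (log2 ratio 0.66) and the integrin gene Itgam (0.58) also read higher with miR-155. Among 19 markers of B cells, T and NK cells, fibroblasts and neutrophils, 1 reached the signal of the median gene (25.8) on the miR-155 array, the neutrophil gene Ngp at 29.6, and 0 did on the empty-vector array. The marker lists summed to 30.6 with miR-155 and 17.8 with empty vector for B cells, 25.9 with miR-155 and 14.3 with empty vector for T and NK cells, 54.0 with miR-155 and 53.6 with empty vector for fibroblasts, and 50.4 with miR-155 and 32.3 with empty vector for neutrophils. Their part in the results below was not tested.

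The GTPases fell into 3 tiers of signal. Irgm1, Irgm2, Igtp and Ifi47 lay above the median gene on both arrays, Mx1 and Mx2 did so on the miR-155 array only, and Gbp2, Gbp3 and Iigp1 lay below it on both. Of the 11 probesets, 8 were brighter on the miR-155 array and 3 were dimmer, namely both of Iigp1 and the dimmer one of Gbp2. A gene is represented below by its brightest probeset, and log2 ratios are miR-155 minus empty vector. The local SD given beside a ratio is a robust SD (scaled median absolute deviation) over the 500 genes of closest signal, and it measures neither clones nor cultures.

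**Figure D1:**
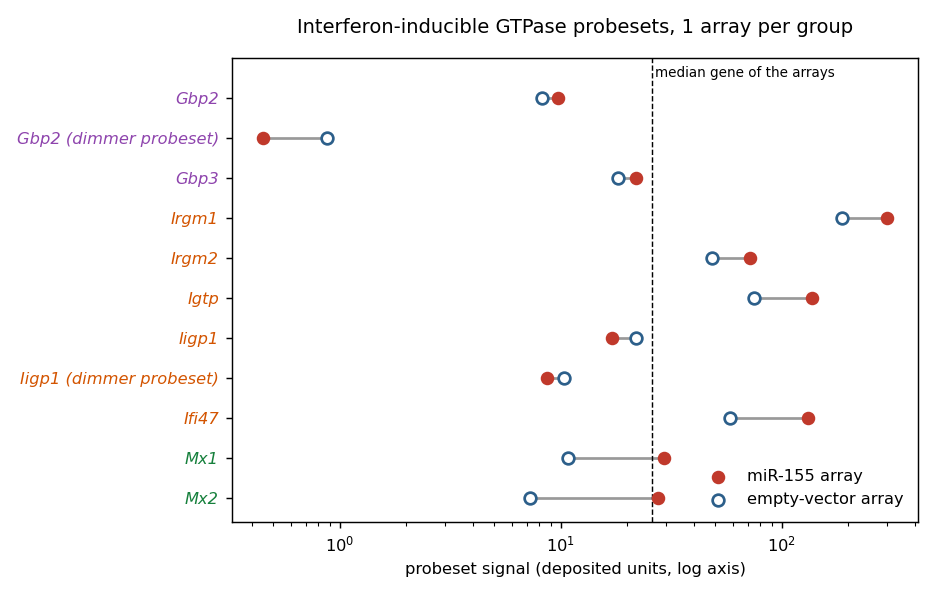
Signal of each of the 11 GTPase probesets on the miR-155 array (filled) and the empty-vector array (open), on a log axis, with names coloured by group and a dashed line at the signal of the median gene (25.8). Irgm1, Irgm2, Igtp and Ifi47 lie right of the line on both arrays, Mx1 and Mx2 cross it on the miR-155 array, and Gbp2, Gbp3 and Iigp1 stay left of it.

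Irgm1, Irgm2 and Igtp (also called Irgm3) encode the regulatory Irg proteins, which sit on host membranes and hold the effector Irg proteins inactive there. Irgm1 was the brightest of the 9 genes, with a signal of 300.2 on the miR-155 array and 187 on the empty-vector array. That was a 1.6-fold higher reading with miR-155 (log2 ratio 0.68, local SD 0.24), and 17 of the 500 genes nearest in signal had a higher ratio. Igtp read 137 with miR-155 and 75.2 with empty vector, 1.82-fold higher (log2 ratio 0.87, local SD 0.35), a ratio exceeded by 11 of its 500 nearest genes. Irgm2 read 71.9 with miR-155 and 48.5 with empty vector. Its ratio was the smallest of the 3, at 1.48-fold (log2 ratio 0.57, local SD 0.42), and 51 of the 500 nearest genes exceeded it. The log2 ratios of the regulatory genes differed from each other by less than the local SD of Igtp or of Irgm2, so their order is not resolved.

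Ifi47 and Iigp1 encode effector Irg proteins (Irgd and Irga6), the kind that coats the parasite vacuole, and they read in opposite directions. Ifi47 read 131 on the miR-155 array and 58.3 on the empty-vector array. Its 2.25-fold difference (log2 ratio 1.17, local SD 0.37) exceeded that of Igtp by less than the local SD of either gene, and 7 of its 500 nearest genes had a higher ratio. Iigp1 read 17.1 with miR-155 and 21.8 with empty vector in its brighter probeset, and 8.69 with miR-155 and 10.3 with empty vector in the other. Both probesets were dimmer with miR-155, at log2 ratios of −0.35 (local SD 0.72) and −0.25 (local SD 1.14). Each ratio was smaller than its local SD, and 316 and 277 of the 500 nearest genes had a higher one, so no difference of Iigp1 was detectable at this signal.

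The upstream windows of the Irg genes are shown because interferon acts through them and because 2 of these genes carry nearly the same one. From RefSeq's promoter table for GRCm38.p6, 7 windows of 6 of the 9 genes were searched (Gbp2, Gbp3, Ifi47, Igtp, Irgm1 and Irgm2). No window of Iigp1, Mx1 or Mx2 was searched. The comparison of elements and ratios below therefore lacks Iigp1, the Irg gene of the 9 that did not read higher with miR-155. The 250 bases before each annotated start were searched on both strands for the ISRE core, which is GAAA, any 2 bases and GAAA again. They were also searched for TTCNNNGAA, the GAS core, which reads the same on both strands. Capitals mark the matches.
Igtp, chr11:58199306-58199555, plus strand: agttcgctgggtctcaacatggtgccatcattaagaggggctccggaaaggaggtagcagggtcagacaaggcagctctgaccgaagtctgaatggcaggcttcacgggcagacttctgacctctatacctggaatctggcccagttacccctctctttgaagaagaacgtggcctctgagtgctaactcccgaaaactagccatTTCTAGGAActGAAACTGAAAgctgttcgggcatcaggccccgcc
Irgm2, chr11:58214727-58214976, plus strand: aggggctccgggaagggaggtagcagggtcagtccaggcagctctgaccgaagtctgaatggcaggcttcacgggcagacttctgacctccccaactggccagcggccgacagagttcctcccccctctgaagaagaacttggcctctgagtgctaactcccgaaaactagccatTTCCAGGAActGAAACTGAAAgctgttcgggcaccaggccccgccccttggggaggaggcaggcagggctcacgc
Irgm1, chr11:48871421-48871670, minus strand: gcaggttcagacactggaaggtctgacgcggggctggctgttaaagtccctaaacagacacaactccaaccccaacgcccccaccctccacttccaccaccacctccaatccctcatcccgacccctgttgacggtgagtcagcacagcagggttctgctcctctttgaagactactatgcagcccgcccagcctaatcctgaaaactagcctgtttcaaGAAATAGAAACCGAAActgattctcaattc
Igtp and Irgm2 are neighbours, and their windows aligned with 89.1% identity over 221 columns, with 55 bases in the longest identical run. In both, a GAS match stands 2 bases upstream of an ISRE match, 45 bases before the start of Igtp and 75 bases before that of Irgm2. The pair is spelled as follows, with the same ISRE letters in both genes.
Igtp: atTTCTAGGAActGAAACTGAAAgc
Irgm2: atTTCCAGGAActGAAACTGAAAgc
Irgm1 had 2 overlapping ISRE matches between 30 and 15 bases before its start and no GAS match. Ifi47 had neither match in its window. Across all 32851 promoter windows of the table, 2.98% held an ISRE match, 7.02% a GAS match and 0.332% both. The readings of Igtp and Irgm2, with this shared element, were 1.82-fold and 1.48-fold higher with miR-155. Of the genes searched that lack the GAS-ISRE pair, Ifi47 and Irgm1 read 2.25-fold and 1.60-fold higher. The dim Gbp2 and Gbp3, which also lack it, read 1.19-fold and 1.21-fold higher. A link between the element and the ratios was not tested.

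**Figure D2:**
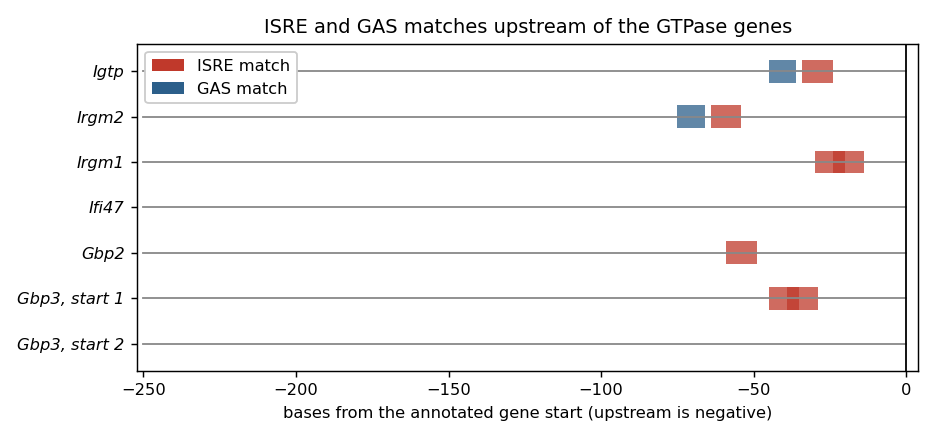
Positions of ISRE (red) and GAS (blue) matches in the 250 bases before each annotated start of 6 GTPase genes, in bases from that start; darker red is where 2 ISRE matches overlap. All matches lie within 75 bases of the start, the GAS-ISRE pair is seen in Igtp and Irgm2, and the windows of Ifi47 and of the second start of Gbp3 hold none.

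Gbp2 and Gbp3 encode guanylate-binding proteins, which assemble on pathogen vacuoles and on bacteria that have escaped into the cytosol. Gbp3 read 21.9 with miR-155 and 18.1 with empty vector (log2 ratio 0.27, local SD 0.70). The brighter probeset of Gbp2 read 9.75 with miR-155 and 8.18 with empty vector (log2 ratio 0.25, local SD 1.25). Its other probeset, of a type that the array maker marks as open to cross-hybridisation, read 0.45 with miR-155 and 0.87 with empty vector. Neither gene differed beyond the local spread, and 159 and 203 of the 500 nearest genes had higher ratios than Gbp3 and Gbp2. Both genes carry the ISRE core close to a start, here on the opposite strand. The windows are shown as the counterpart to the Irg windows above.
Gbp2, chr3:142620413-142620662, plus strand: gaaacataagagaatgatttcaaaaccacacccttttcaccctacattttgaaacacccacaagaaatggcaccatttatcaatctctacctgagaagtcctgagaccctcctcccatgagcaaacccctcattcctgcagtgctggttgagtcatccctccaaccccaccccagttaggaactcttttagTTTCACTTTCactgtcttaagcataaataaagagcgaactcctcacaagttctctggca
Gbp3, chr3:142559794-142560043, plus strand: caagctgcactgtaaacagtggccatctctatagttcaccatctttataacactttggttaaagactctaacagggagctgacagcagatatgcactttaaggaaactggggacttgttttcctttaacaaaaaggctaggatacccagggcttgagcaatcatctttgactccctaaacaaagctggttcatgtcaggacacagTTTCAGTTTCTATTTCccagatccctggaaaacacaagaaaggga
Gbp2 had 1 match starting 59 bases before its start, and Gbp3 had 2 overlapping matches between 45 and 30 bases before the first of its 2 annotated starts. Neither window held a GAS match. In all, 5 of the 6 genes searched held an ISRE match.

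Mx1 and Mx2 encode the Mx proteins, dynamin-like GTPases that block influenza and related viruses in the nucleus (Mx1) and vesicular stomatitis virus in the cytoplasm (Mx2) in mice with intact alleles. Most laboratory mouse strains, including BALB/c from which RAW264.7 derives, carry defective alleles, and RefSeq lists both genes as transcribed pseudogenes in the reference strain. Mx1 read 29.2 on the miR-155 array and 10.8 on the empty-vector array. Mx2 read 27.6 with miR-155 and 7.25 with empty vector. The log2 ratios, 1.44 for Mx1 (local SD 0.76) and 1.93 for Mx2 (local SD 0.87), were exceeded by 17 and 8 of the 500 nearest genes. On the empty-vector array only 41.2% and 32.5% of probesets were dimmer than Mx1 and Mx2, so the size of these ratios is poorly fixed. With readings under 25.8 raised to that value the log2 ratios were 0.18 and 0.098.

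**Figure D3:**
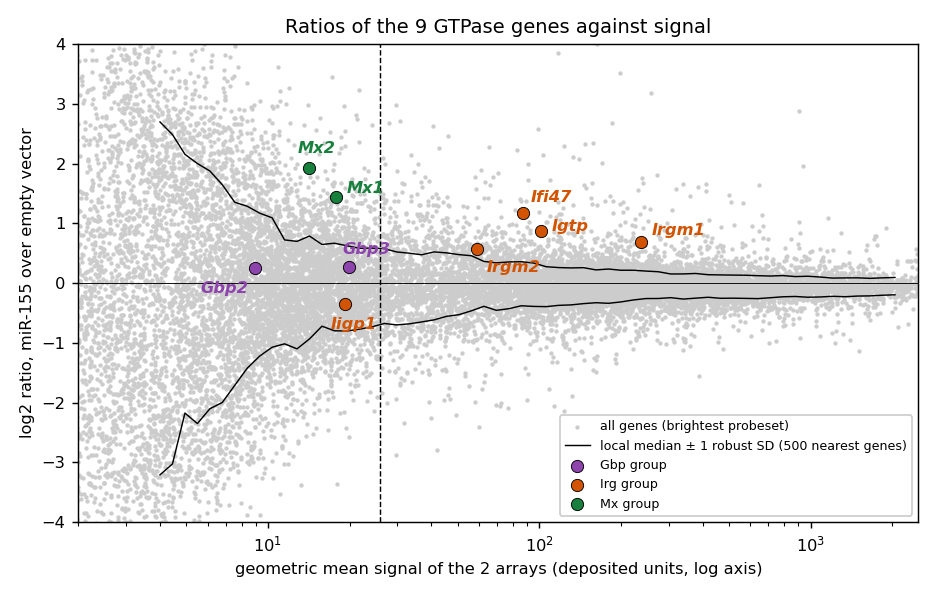
Log2 ratio of miR-155 over empty vector against the geometric mean signal of the 2 arrays (log axis) for all genes (grey, those within the axis limits), with the 9 GTPase genes coloured by group; black lines are the local median ± 1 robust SD of the 500 nearest genes and the dashed line is the signal of the median gene. Ifi47, Igtp, Irgm1, Irgm2, Mx1 and Mx2 lie above the upper line, and Gbp2, Gbp3 and Iigp1 lie between the lines.

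The median log2 ratio over all genes of a group was 1.68 for the 2 Mx genes, 0.68 for the 5 Irg genes (range −0.35 to 1.17) and 0.26 for the 2 Gbp genes. The order of Mx and Irg turned with an offset of 50 added to the signals (0.41 for Mx and 0.56 for Irg) and with readings under 25.8 raised to it (0.14 and 0.68), so no ranking of the groups is given. The Mx and Gbp genes were dim, with a local SD of 0.70 to 1.25 against 0.24 to 0.42 for the 4 brighter Irg genes. Over the 9 genes the median was 0.68, where that of all 18193 genes was −0.060. Only 4 of the 9 passed the filter on signal (the upper 50% of genes), all of the Irg group, and each of them would have passed it by the empty-vector reading alone. All 4 read higher with miR-155, as did 42% of the 9097 genes that passed. Of the 4, 3 were at least 1.5-fold higher (5.32% of genes passing the filter) and 1, Ifi47, was at least 2-fold higher (1.92%). None of the 4 was lower by either fold, where 5.99% and 1.43% of these genes were. Without the filter, 5 of the 9 were at least 1.5-fold and 3 at least 2-fold higher, against 17.1% and 11.4% of all genes, and 0 were as much lower, against 21.2% and 13.8%. A ratio above 0 was found for 8 of the 9 and for 44% of all genes. Among genes below the filter alone, where the Mx genes belong, 20.9% were at least 2-fold higher with miR-155 and 26.3% at least 2-fold lower.

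The wider GTPase families were represented by 13 further probesets, 3 of them shared between genes. The brightest was shared by Gvin1, a very large interferon-inducible GTPase, and its relative Gm4070. It read 243 with miR-155 and 122 with empty vector, a 1.99-fold difference (log2 ratio 0.99, local SD 0.27) exceeded by 8 of its 500 nearest genes. A probeset shared by Tgtp1 and Tgtp2, which encode further effector Irg proteins, read 22.6 with miR-155 and 7.51 with empty vector (log2 ratio 1.59, local SD 0.88). Irgq, a distant Irg-like gene not known as interferon-inducible, read 48.0 with miR-155 and 50.6 with empty vector, and 2.36 with miR-155 and 2.82 with empty vector in its dimmer probeset. Gm12185, which lies between Irgm1 and Ifi47, read 32.6 with miR-155 and 26.6 with empty vector. Only 3 of the 13 probesets reached the signal of the median gene, all 3 on both arrays: those of Gvin1 and Gm4070, of Irgq and of Gm12185.

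The remaining guanylate-binding protein probesets were all dim and went both ways. Gbp2b read 7.83 with miR-155 and 1.44 with empty vector. Gbp8 read 8.61 with miR-155 and 0.39 with empty vector, and a probeset shared by Gbp8 and Gbp4 read 18.6 with miR-155 and 1.04 with empty vector. The 2 probesets of Gbp7 disagreed, with 21.2 with miR-155 and 8.14 with empty vector in one, and 2.53 with miR-155 and 19.4 with empty vector in the other. Those of Gbp6 disagreed as well (14.1 with miR-155 and 6.16 with empty vector in one, 0.74 with miR-155 and 7.14 with empty vector in the other). Irgc1, a testis-type Irg gene, read 1.20 with miR-155 and 2.42 with empty vector. No direction can be given for the Gbp family at these signals.

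Irgm1, Ifi47, Igtp and Irgm2 lie on chromosome 11 in 2 clusters, Irgm1 to Ifi47 and Igtp beside Irgm2, and no flanking gene examined was as high. In the order of the RefSeq table, the 5 nearest protein-coding genes on each side that passed the signal filter were taken for each cluster, 20 genes in all. None of the 20 was at least 1.5-fold higher with miR-155 and 1 was that much lower. Of all genes passing the filter, 5.32% were that much higher and 5.99% that much lower, so both counts are near those shares. The log2 ratios of the 20 genes ran from −1.29 to 0.32 around a median of −0.097. The lowest was Lsm11, of the histone pre-mRNA processing complex, which read 104 with miR-155 and 254 with empty vector. Beside Igtp and Irgm2, Mrpl22, a mitochondrial ribosomal protein, read 942 with miR-155 and 954 with empty vector, and the zinc finger gene Zfp692 read 114 with miR-155 and 138 with empty vector. The choice of flanking genes was made after the GTPase values had been seen.

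Most targets of type I interferon and of interferon-gamma other than GTPases read higher with miR-155, while another, shorter list of interferon-stimulated genes was split. Of 26 type I interferon targets that passed the filter, 26 had a ratio above 0, 21 were at least 1.5-fold and 14 at least 2-fold higher, and the median was 1.01, where that of the 9097 genes was −0.048. Of the 9097 genes, 42% had a ratio above 0, 5.32% were at least 1.5-fold and 1.92% at least 2-fold higher, and 88.7% were within 1.5-fold. The ratios of 14 of the 26 type I targets lay between those of Irgm2 and Ifi47, 8 lay above and 4 below. The largest with both readings bright were Trim30a, a regulator of Toll-like receptor signalling (1.76), Usp18, the ISG15 protease (1.54), Irf7, the amplifier of type I interferon transcription (1.43), and the RNA sensor Dhx58 (1.37). Of 12 targets of interferon-gamma, 11 had a ratio above 0, 5 were at least 1.5-fold and 1 at least 2-fold higher, with a median of 0.45. They were led by the immunoproteasome subunit Psmb9 (1.15), the peptide transporter Tap1 (0.95), the chemokine Cxcl10 (0.89) and the immunoproteasome subunit Psmb8 (0.73). Some classical interferon-gamma targets were too dim to read: Ciita, the master regulator of MHC class II, read 4.16 with miR-155 and 12.1 with empty vector, and Nos2, the inducible nitric oxide synthase, read 1.40 with miR-155 and 2.63 with empty vector. The dim targets went both ways. H2-Aa, Cd274, Cxcl9 and H2-Eb1 read higher with miR-155, and H2-Ab1, Ido1 and Socs1 read lower, like Ciita and Nos2. Of 6 further interferon-stimulated antiviral genes, 5 were within 1.5-fold, 3 had a ratio above 0 and 3 below it, and the median was 0.057. The membrane restriction factor Ifitm3 was 2.04-fold higher (6543 with miR-155 and 3200 with empty vector), the RNA-binding Zc3hav1 was at 0.33 and the RNA editor Adar at 0.17, while the nucleotide hydrolase Samhd1 (−0.20), Ifitm2 (−0.16) and the exoribonuclease Pnpt1 (−0.059) were below 0.

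Genes of the interferon signalling chain read in both directions. Of all genes passing the filter, 5.32% were at least 1.5-fold higher and 5.99% as much lower. A count of 1 in lists as short as these is near those shares. Irf9, the DNA-binding subunit of ISGF3, read 257 with miR-155 and 155 with empty vector (log2 ratio 0.73, local SD 0.26). Stat2, its partner, read 54.1 with miR-155 and 20.9 with empty vector, where it lay below the median gene. Irf1 read 145 with miR-155 and 114 with empty vector (log2 ratio 0.35, local SD 0.30), and Irf8, its partner in macrophages, 792 with miR-155 and 595 with empty vector (log2 ratio 0.41, local SD 0.19). Of 10 receptor, JAK and STAT genes 2 were at least 1.5-fold higher, Irf9 and Stat2, and 0 as much lower, with a median of 0.14. The interferon-gamma receptor chain Ifngr2 was at 0.38 and the transcription factor Stat3 at 0.32, while the type I receptor chain Ifnar2 was at −0.41. Of 6 interferon regulatory factors, Irf7 alone was at least 1.5-fold higher, Irf2 was at 0.48, and Irf3 (−0.42) and Irf5 (−0.44) read lower. Of 11 negative regulators 1 was at least 1.5-fold higher, Usp18, and 1 at least 1.5-fold lower, the STAT inhibitor Pias3 (40.6 with miR-155 and 65.7 with empty vector, log2 ratio −0.69, local SD 0.46), followed by Pias1 (−0.42) and Pias4 (−0.33). The 10 interferon ligand genes with a probeset were all dimmer than the median gene on both arrays. Their highest readings were 19.6 with miR-155 (Ifna1) and 14.6 with empty vector (Ifna4), Ifnb1 read 13.6 with miR-155 and 13.7 with empty vector, and Ifng read 4.29 with miR-155 and 1.14 with empty vector.

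**Figure D4:**
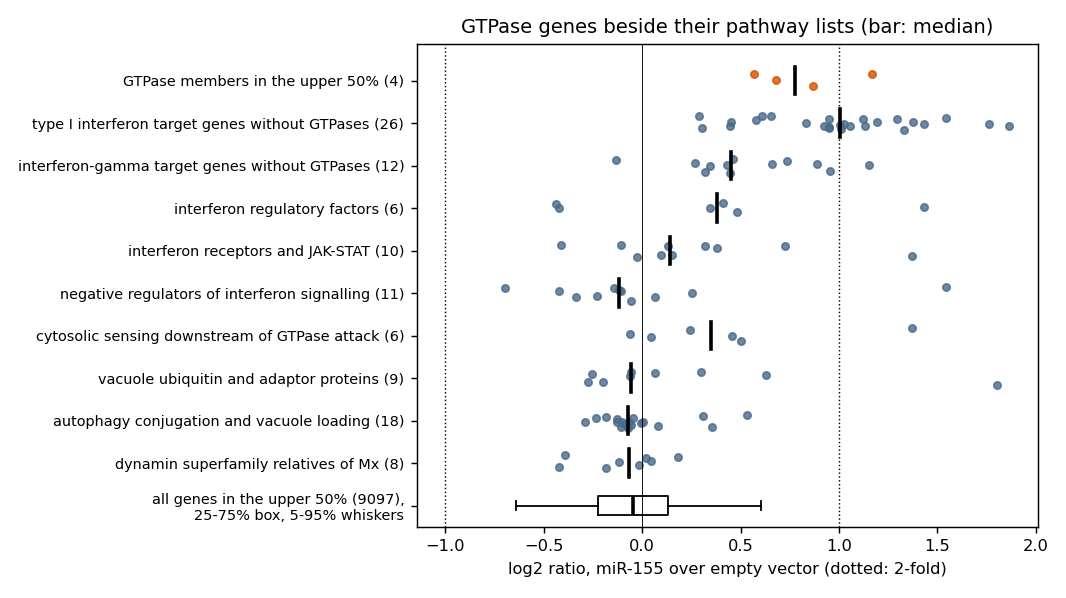
Log2 ratios of miR-155 over empty vector for the 4 GTPase genes that passed the signal filter (orange) and for 9 related lists (blue, gene numbers in parentheses), with a bar at each median and the box of all 9097 genes at the bottom. The GTPases (median 0.77) lie among the type I interferon targets (median 1.01) and also overlap the interferon-gamma targets (median 0.45). The autophagy genes (median −0.070) lie on the box of all genes.

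Of 33 genes passing the filter, for proteins that help GTPases to act or that respond to vacuole lysis, 30 (90.9%) were within 1.5-fold. That was close to the 88.7% of all genes passing the filter, but the lists pooled here differed in their medians. A list of autophagy genes had 18 of 18 within 1.5-fold and a median of −0.070. Most belong to the ubiquitin-like conjugation machinery, which guides Irg and Gbp proteins to vacuoles, but Ulk1, Rb1cc1 and Becn1 do not. The ones farthest from 0 were the conjugating enzyme Atg10 (0.53, local SD 0.57), the protease Atg4d (0.35), Atg5, a part of the conjugating complex (0.31), and Atg4c (−0.29). Of 9 ubiquitin and adaptor genes of the vacuole, Lgals9, the sugar-binding galectin 9, was 3.49-fold higher (507 with miR-155 and 146 with empty vector), the ubiquitin ligase Rnf213 was at 0.63, Trim21 at 0.30 and the adaptor Tax1bp1 at −0.27, with a median of −0.054. Downstream of vacuole lysis, Casp4, the cytosolic lipopolysaccharide sensor caspase-11, read 62.5 with miR-155 and 24.2 with empty vector. Casp1 (0.50, local SD 0.19), the pore-former Gsdmd (0.45, local SD 0.22), the DNA sensor Aim2 (0.24) and the cytokine Il18 (−0.063) were each within 1.5-fold. The ratios of Casp1 and Gsdmd were larger than their local SD. Of the 6 genes, 5 had a ratio above 0, against 42% of all genes passing the filter, and the median was 0.35. Zbp1, Pycard and Il1b did not pass the filter and are outside the 33. Each read higher with miR-155, Zbp1 at 46.4 against 7.98 with empty vector. The dynamin relatives of Mx, which interferon is not known to induce, had 8 of 8 genes within 1.5-fold and a median of −0.066; Opa1 (−0.42), Ehd4 (−0.39), Mfn2 (0.18) and Mfn1 (−0.18) were farthest from 0.

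The promoter elements of the GTPases were also set against the ratios of other genes. Leaving out the 9 GTPases, 229 genes that passed the filter had an ISRE match in a window, and 27 of them (11.8%) were at least 1.5-fold higher with miR-155, against 329 of 6789 genes (4.85%) with neither match. At least 1.5-fold lower were 4.37% of the ISRE genes and 6.10% of those with neither match. The medians were nearly equal, at −0.055 and −0.052. Of 493 genes with a GAS match and no ISRE match, 23 (4.67%) were at least 1.5-fold higher. Both matches in 1 window, as in Igtp and Irgm2, were found for 25 other genes, among them the Irg-cluster gene Gm12185 described above (log2 ratio 0.29, local SD 0.62). Of the 25, 5 were at least 1.5-fold higher, namely Rab19 (53.0 with miR-155 and 18.5 with empty vector), the tetherin gene Bst2 (log2 ratio 1.06), Oas1a, a producer of the RNase L activator (1.02), Parp11 (0.63) and the kinase Sgk1 (0.59), and 1 at least 1.5-fold lower, Tcl1b3 (137 with miR-155 and 935 with empty vector). The higher genes were 20% of the 25 and the lower one 4%. Bst2 and Oas1a are also among the type I interferon targets counted above, so these shares are not separate from those counts. The genes named here were picked after their values were seen, and a match of letters does not show binding.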

How the data were processed

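RNA from 2 pools of 5 clones each was measured on 1 array per arm. The authors deposited linear intensities per probeset, with no detection calls; labelling followed the array maker's standard procedures, per the labels' protocols, while software, background correction and scaling are not stated there. Gene symbols came from the platform annotation and were brought up to date through the Entrez identifiers of RefSeq (GRCm38.p6): 34945 had 1 symbol, 932 several and 9160 none, controls left out. A gene was represented by its brightest single-gene probeset, and genes in the upper 50% of mean log2 signal (25.8 as geometric mean) were kept. Log2 ratios used no offset, and no test, p-value or interval was computed. Counts were made at 1.5-fold and 2-fold. Calculations used Python 3.11.15, pandas 2.3.3 and NumPy 2.4.6, and were tested on simulated ratios. Promoter windows were searched for exact letters.

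The 9 genes, the lists, some of which overlap, and the comparisons were chosen with earlier results of these data known. Named were all 9 genes, the other GTPases, and in each list the 4 largest ratios with both readings at or above 25.8, with the main interferon factors; other genes named were chosen after their values were seen. Genes of like pattern were not sought, since a pattern over 2 arrays is a single ratio.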

Additional observations from a re-analysis of the deposited data

How the results depend on the processing

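No paired analysis was possible because each arm has 1 array. The median log2 ratio of the GTPases in the upper 50% of signal was 0.77, and 0.57 to 0.85 under 9 alternatives. The count of those at least 2-fold higher was 1, but 0 with an offset of 50, 0 in the upper 25% of signal, where only Irgm1 was left, and 3 without a filter, when Mx1 and Mx2 entered. The Mx median of 1.68 was 0.41 with an offset of 50 and 0.14 with readings below 25.8 raised to it, both of which shrink ratios of dim readings by construction. The Gbp median of 0.26 was −0.040 with all probesets averaged. Ifi47 was at 0.74 with the offset. Over 7 alternatives that could be computed for single genes, Irgm1 stayed between 0.56 and 0.76, Igtp between 0.58 and 0.94 and Irgm2 between 0.31 and 0.65. Most of these could not move them, since each has 1 unshared probeset of the plain type with both readings above 25.8. Only the offset, quantile normalisation and setting the median ratio of all probesets to 0 could. The alternatives that could not move them also left the median of 0.77 unchanged. Among the related lists, 1 of 99 values moved by more than the local SD: the median of the interferon regulatory factors, 0.38, was −0.42 in the upper 25% of signal. The number of arrays and the dim signal of 5 of the 9 genes limit every statement. The filter at the upper 50% was added for the Irg median after the data were seen (0.77 against 0.68).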
